A study of Mus musculus with 21 samples.

Results

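The genes described here are 10 markers of the layers of the cerebral cortex, found by gene symbol among the 64361 genes of the count table. The 6 upper layer members were Cux1, Cux2, Rasgrf2 and Lamp5 for layers 2/3 and Rorb and Rspo1 for layer 4, and the 4 deep layer members were Fezf2 and Bcl11b for layer 5 and Foxp2 and Tle4 for layer 6. RNA from whole pieces of cortex and hippocampus was sequenced with prime-seq, which barcodes polyadenylated RNA early and reads its 3′ end. GA-Camk2a mice carry a floxed transgene for poly-GA, a dipeptide repeat protein made from the C9orf72 repeat expansion of amyotrophic lateral sclerosis, fused to GFP, and a Camk2a-Cre driver switches it on in excitatory neurons. They were compared with mice labelled as controls, whose alleles the labels do not list. All mice were on a C57BL/6J background and, by the labels, 30 to 40 weeks old. The paper describes the GA-Camk2a mice as 30 weeks old and places their humane endpoint at about that age. There were 5 control and 6 GA-Camk2a libraries of cortex and 4 control and 6 GA-Camk2a libraries of hippocampus, from 11 mice of which, by the numbers in the titles, 10 gave both tissues.

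The excitatory neurons of the neocortex are born in order and settle in layers, with late-born neurons in the upper layers that connect cortical areas and early-born neurons in the deep layers that project to the spinal cord, brainstem and thalamus. Transcription factors such as Cux1 and Cux2 in the upper layers and Fezf2, Bcl11b, Foxp2 and Tle4 in the deep layers mark these classes, and several of them help to set a neuron's identity. The markers are not exclusive to the neocortex: Bcl11b is also made by granule and pyramidal neurons of the hippocampus, Bcl11b and Foxp2 by the medium spiny neurons of the striatum, Rorb by thalamic neurons, and Lamp5 by a class of inhibitory interneurons. The hippocampus has no such layers, so it served as the tissue in which these genes report other cells.

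Libraries held between 1048201 and 5888102 counts (median 1975173), and levels are given as CPM, each gene's count scaled to its library total, with no correction for transcript length. The GFP row held 0 to 4 counts in GA-Camk2a cortex, 0 to 2 in control cortex and at most 1 in the hippocampus, too few to check the genotype labels. The hippocampal markers summed to between 605.8 and 828.6 CPM in hippocampus libraries and to between 119 and 186 CPM in cortex libraries, which fits the tissue labels. In 4 libraries Rorb stood far above the others, and in cortex a list of striatal markers was lower in GA-Camk2a mice; both are described with the results they touch. Because the tissue was measured in bulk, fewer cells of a type and less RNA per cell cannot be told apart.

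**Figure D1:**
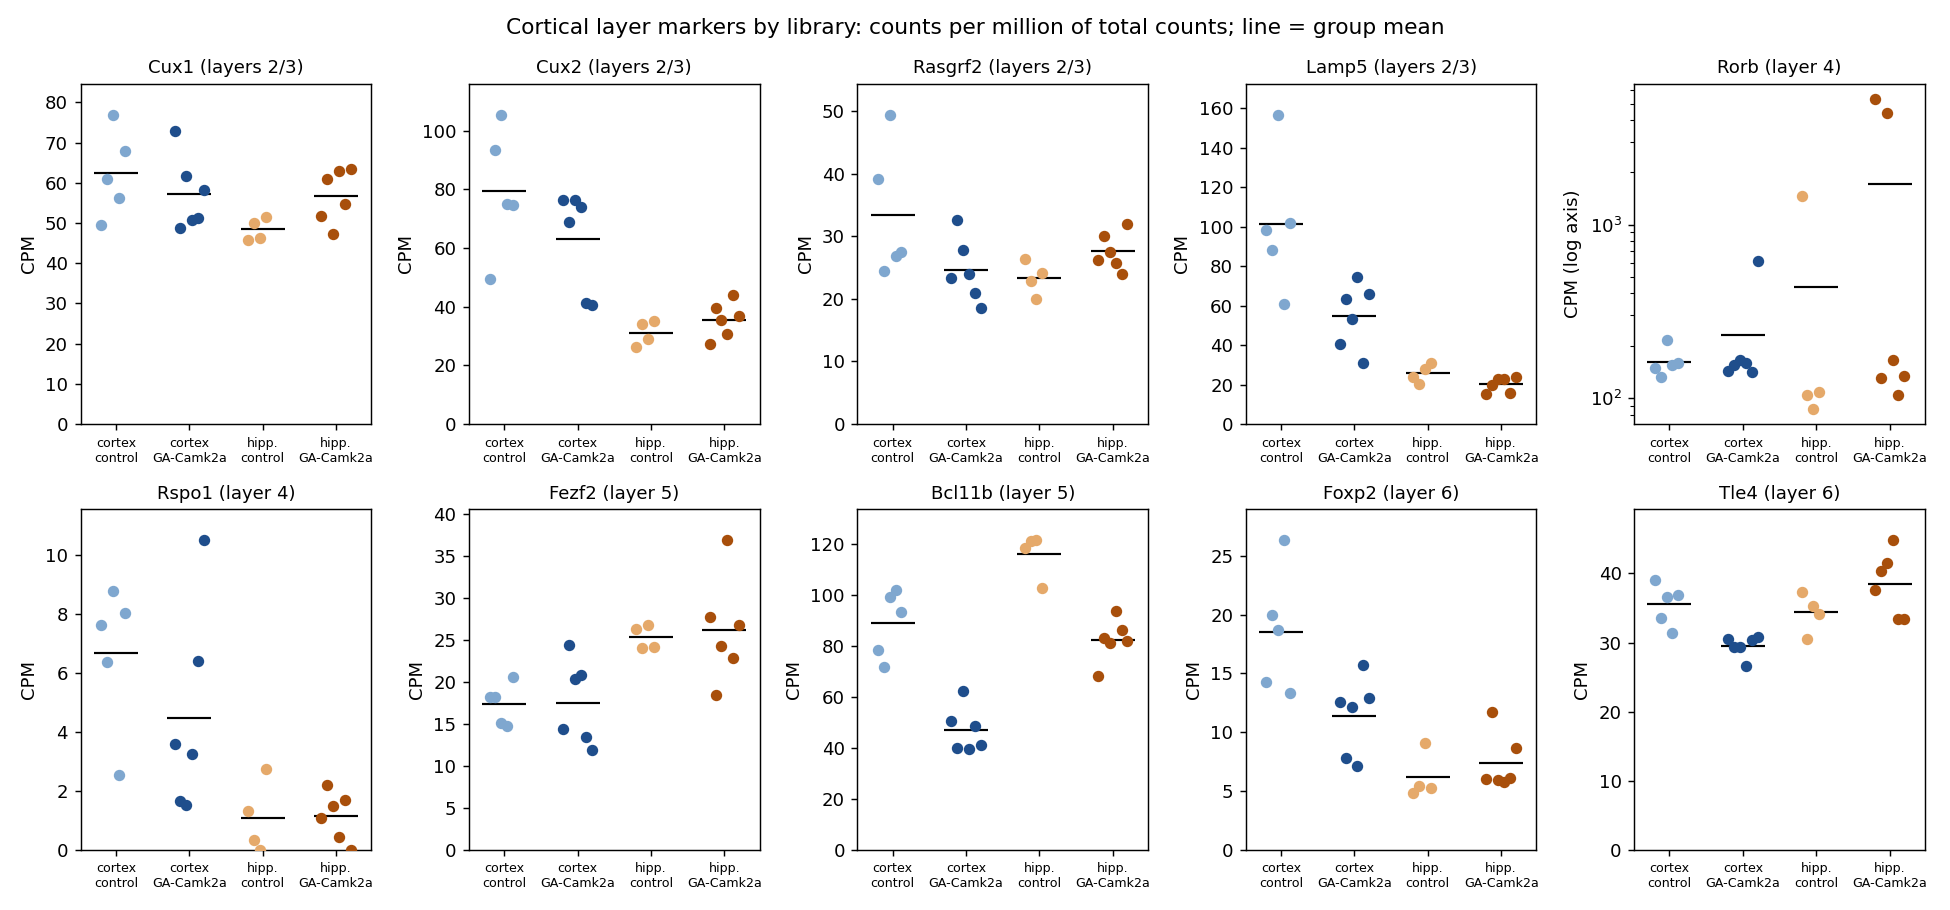
Level of each layer marker in each of the 21 libraries, in CPM (vertical axis, logarithmic for Rorb and linear from 0 otherwise), by tissue and genotype; a point is 1 library and a line the group mean. In cortex, Bcl11b and Tle4 did not overlap between the genotypes, and 4 libraries stand far above the others for Rorb.

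In cortex, 3 of the 10 markers were lower in GA-Camk2a mice and none was higher (edgeR quasi-likelihood test, adjusted p under 0.05). Over all 13058 genes tested, 12.5% passed in either direction, 6.35% higher and 6.17% lower. The members that fell were Lamp5 of layers 2/3, Bcl11b of layer 5 and Foxp2 of layer 6. The fitted log2 fold change was below 0 for 8 of the 10 members, with a median of -0.41, whereas the median over all genes tested was -0.01. Rspo1, among those below 0, reached the cutoff of the low-count filter in 4 of 5 control and 2 of 6 GA-Camk2a libraries. Without it the median over 9 members was -0.37.

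Lamp5 encodes a lysosome-associated membrane protein of neurons that is strong in superficial cortex. Control libraries held 98.3, 88.1, 157, 60.8 and 102 CPM, and GA-Camk2a libraries ranged from 30.9 to 74.7 CPM with a median of 58.2. All but 1 control library were above every GA-Camk2a library. Controls averaged 101 ± 35.04 CPM (SD, n = 5) against 54.8 ± 16.6 (SD, n = 6) in the transgenic libraries, and the fitted change was -0.93 on the log2 scale (SE 0.13, edgeR adjusted p = 5.4e-05). Within batch 1 the change was -0.89 and within batch 2 it was -1.05, both past the threshold.

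Bcl11b, also called Ctip2, is the transcription factor of subcerebral projection neurons in layer 5. The 5 control libraries held 78.2, 71.8, 99.3, 102 and 93.4 CPM, whereas the GA-Camk2a libraries lay between 39.6 and 62.3 CPM with a median of 44.8. Every control library was above every GA-Camk2a library. The fitted change was -0.93 on the log2 scale (SE 0.12, edgeR adjusted p = 2.14e-05), from 88.9 ± 13.2 (SD, n = 5) to 47.0 ± 8.75 CPM (SD, n = 6). It was -0.98 within batch 1 and -0.84 within batch 2, and both passed.

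As the members with the lowest adjusted p in cortex, Lamp5 and Bcl11b are shown with the 250 bases before their transcription start, from the RefSeq promoter table on build GRCm38.p6, which lists 9 of the 10 members. The Lamp5 stretch is chr2:136052089-136052338 on the plus strand, before the more upstream of 2 listed starts, and the Bcl11b stretch is chr12:108003415-108003664 on the minus strand. Each is written 5′ to 3′ along its gene, with capitals for matches on either strand to the E-box letters CANNTG, which neuronal bHLH factors bind, and to the GC box GGGCGG.
Lamp5: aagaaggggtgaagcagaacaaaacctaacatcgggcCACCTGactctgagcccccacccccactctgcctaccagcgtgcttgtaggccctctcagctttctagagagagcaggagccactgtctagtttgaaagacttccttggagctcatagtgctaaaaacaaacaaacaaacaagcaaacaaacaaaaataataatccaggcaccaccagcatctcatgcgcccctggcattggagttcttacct
Bcl11b: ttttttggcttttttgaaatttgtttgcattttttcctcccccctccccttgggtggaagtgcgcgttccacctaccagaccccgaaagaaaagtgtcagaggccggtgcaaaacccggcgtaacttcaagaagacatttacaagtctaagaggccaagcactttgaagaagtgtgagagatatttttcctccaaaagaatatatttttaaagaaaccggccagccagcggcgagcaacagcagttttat
The Lamp5 window held 1 match to CANNTG and none to GGGCGG, and the Bcl11b window held neither. Of all 32851 promoter windows of this length, 66.2% held CANNTG and 32.7% held GGGCGG, and 12.4% held the TATA box letters TATAAA, which neither member had.

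Foxp2, a forkhead transcription factor of corticothalamic neurons in layer 6, was a low gene, with 11 to 52 counts per cortex library. Controls held 14.3, 20.0, 18.7, 26.3 and 13.3 CPM, and GA-Camk2a libraries ranged from 7.15 to 15.7 CPM with a median of 12.4. The groups overlapped. The change was -0.62 on the log2 scale (SE 0.19, edgeR adjusted p = 0.0335), from 18.5 ± 5.20 (SD, n = 5) to 11.4 ± 3.28 CPM (SD, n = 6). This call was the least stable of the members that fell. It was lost when any of GA-Camk2a 16, 23, 34 or 35 or control 31 or 37 was left out (adjusted p up to 0.118), with DESeq2 (0.0743), with counts thinned to the smallest library, without the batch term and within either batch (adjusted p up to 0.299), although the fitted change stayed between -0.73 and -0.54.

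The other markers of layers 2/3 did not pass. Rasgrf2, an exchange factor for Ras, had a fitted change of -0.46 (SE 0.17, edgeR adjusted p = 0.0789), with controls at 39.1, 24.5, 49.5, 26.8 and 27.4 CPM and GA-Camk2a libraries from 18.5 to 32.6 CPM with a median of 23.7. The groups overlapped, and single libraries moved the value, to -0.60 without control 38, where it passed (adjusted p = 0.0247), and to -0.28 without control 31 (adjusted p = 0.373). For the homeodomain factor Cux2, controls held 49.6, 93.6, 106, 74.9 and 74.5 CPM and GA-Camk2a libraries 40.6 to 76.5 CPM with a median of 71.5, a change of -0.37 (SE 0.17, edgeR adjusted p = 0.183). Its relative Cux1 changed by -0.15 (SE 0.12, edgeR adjusted p = 0.479), from 62.3 ± 10.6 (SD, n = 5) to 57.2 ± 9.11 CPM (SD, n = 6).

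Of the layer 4 markers, Rorb is a nuclear receptor of the retinoid-related orphan group. In cortex the controls held 148, 133, 214, 154 and 159 CPM, and 5 of the 6 GA-Camk2a libraries held 142 to 164 CPM, whereas GA-Camk2a 41 held 612 CPM. The fitted change was 0.45 (SE 0.28, edgeR adjusted p = 0.337) with that library and -0.08 (adjusted p = 0.668) without it. Without the filter on low counts the change was 0.43 and passed (adjusted p = 0.00568). Rspo1, a secreted activator of Wnt signalling, had only 3 to 30 counts per cortex library, with a mean of 6.67 ± 2.48 CPM (SD, n = 5) in controls against 4.49 ± 3.44 (SD, n = 6) in GA-Camk2a mice. Its change of -0.50 (SE 0.40, edgeR adjusted p = 0.465) did not pass, and it rested on single libraries, at -1.11 (adjusted p = 0.0571) without GA-Camk2a 41 and -0.25 (adjusted p = 0.745) without GA-Camk2a 23. Rspo1 reached the filter's cutoff of 5.06 CPM in 4 of 5 control and 2 of 6 GA-Camk2a libraries. It therefore entered the test mostly through the controls, in which its mean was higher.

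The remaining deep layer markers did not pass. Fezf2, which acts upstream of Bcl11b in layer 5 neurons during development, held 18.1, 18.2, 15.0, 14.7 and 20.5 CPM in controls and 11.9 to 24.4 CPM in GA-Camk2a libraries with a median of 17.3. The groups lay on top of each other, with a change of 0.01 (SE 0.19, edgeR adjusted p = 0.981). Tle4, a corepressor of layer 6 neurons, held 39.1, 33.6, 36.6, 31.4 and 36.8 CPM in controls and 26.6 to 30.8 CPM in GA-Camk2a libraries with a median of 29.8. Every control library was above every GA-Camk2a library, yet the change of -0.25 (SE 0.12, edgeR adjusted p = 0.171) did not pass. Groups that do not overlap were thus seen for 2 of the 10 members, beside 6.17% of all genes tested.

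**Figure D2:**
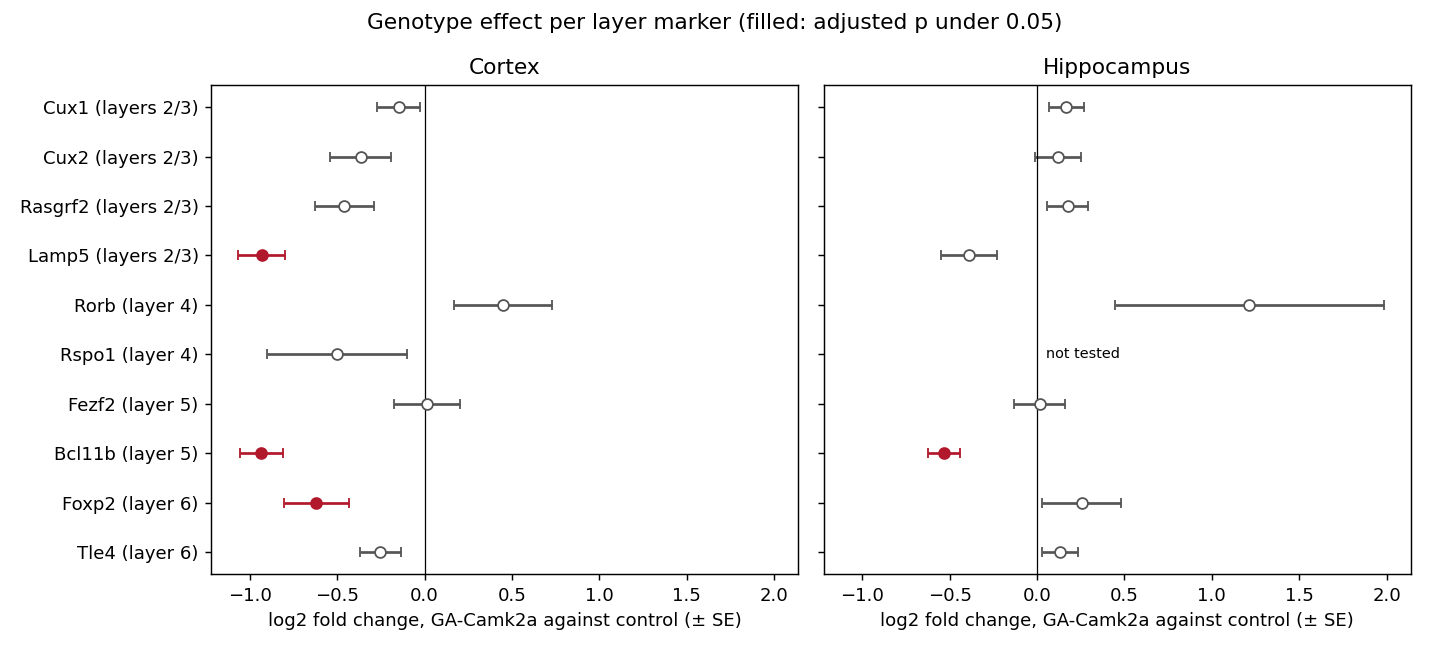
Log2 fold change of each layer marker in GA-Camk2a against control mice, in cortex and in hippocampus (horizontal axis, edgeR estimate), with its standard error as the bar; filled points passed an adjusted p of 0.05. Lamp5, Bcl11b and Foxp2 passed in cortex and Bcl11b in hippocampus, and Rspo1 was too low to be tested in hippocampus.

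To set the upper against the deep layers, the mean log2 CPM of the 6 upper and of the 4 deep members was taken in each library, as a description with no test. In cortex the deep level was 5.01 ± 0.06 (SD, n = 5) in controls against 4.55 ± 0.13 (SD, n = 6) in GA-Camk2a mice, and every control library, at 4.95 to 5.10, was above every GA-Camk2a library, at 4.39 to 4.75. The upper level was 5.67 ± 0.31 (SD, n = 5) in controls and 5.32 ± 0.22 (SD, n = 6) in GA-Camk2a mice, and the groups overlapped. The upper level minus the deep level was 0.66 ± 0.33 (SD, n = 5) and 0.77 ± 0.30 (SD, n = 6), a difference smaller than either spread, and the sign of that difference rested on single libraries, at -0.0012 without control 37 and 0.23 without control 31.

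The levels changed with the genes averaged. Bcl11b and Foxp2 were the deep members that passed in cortex, so leaving them out had to shrink the deep difference. Lamp5, the upper member that passed, stayed in. The levels below therefore describe that choice of genes and decide nothing about the layers. Without Bcl11b and Foxp2, which striatal neurons also express, and without Rorb, the deep level of cortex rested on Fezf2 and Tle4 and was 4.68 ± 0.14 (SD, n = 5) in controls and 4.54 ± 0.17 (SD, n = 6) in GA-Camk2a mice. The upper level was then 5.35 ± 0.34 (SD, n = 5) and 4.87 ± 0.12 (SD, n = 6). The upper level minus the deep level was 0.67 ± 0.33 (SD, n = 5) in controls and 0.33 ± 0.23 (SD, n = 6) in GA-Camk2a mice. Its groups overlapped, at 0.43 to 1.24 and 0.042 to 0.69. In hippocampus the upper level minus the deep level was -0.16 ± 0.48 (SD, n = 4) in controls and 0.13 ± 0.49 (SD, n = 6) in GA-Camk2a mice, a difference smaller than either spread, and without Bcl11b, Foxp2 and Rorb it was -0.79 in both groups. With all members averaged, the genotype difference in upper minus deep was smaller than either spread in both tissues. Of the upper members 1 of 6 passed as lower in cortex, and of the deep members 2 of 4, beside 6.17% of all genes tested.

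**Figure D3:**
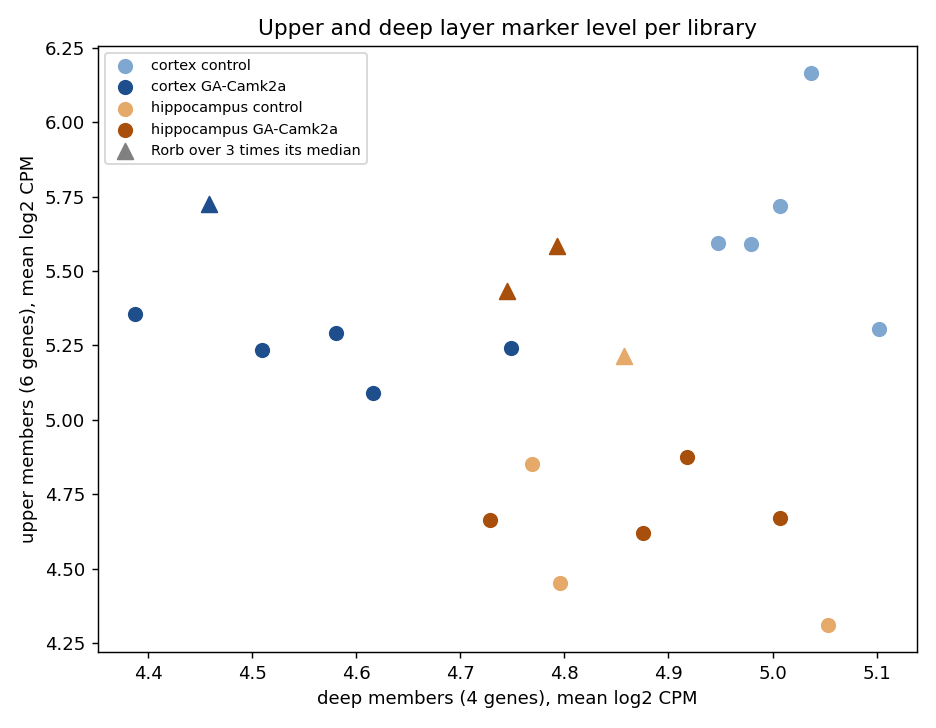
Mean log2 CPM of the 6 upper members (vertical axis) against that of the 4 deep members (horizontal axis), 1 symbol per library; triangles are the 4 libraries in which Rorb was over 3 times its median. Control and GA-Camk2a cortex libraries are separated along the deep axis, and the triangles lie above the other libraries of their groups.

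In hippocampus only Bcl11b of the 9 members tested changed between the genotypes, and it fell. Over all 14884 genes tested there, 10.9% passed in either direction, 4.97% higher and 5.97% lower. Controls held 118, 121, 121 and 103 CPM and GA-Camk2a libraries 68.1 to 93.6 CPM with a median of 82.5. No GA-Camk2a library reached the lowest control, beside 9.62% of all genes whose groups did not overlap. The change was -0.53 on the log2 scale (SE 0.09, edgeR adjusted p = 0.0014), from 116 ± 8.85 (SD, n = 4) to 82.3 ± 8.36 CPM (SD, n = 6). It was -0.59 within batch 2 (adjusted p = 0.0146) and -0.49 within batch 1, where it did not pass (adjusted p = 0.21).

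Markers of the hippocampal neurons that also make Bcl11b moved in the same comparison. Of the 8 genes on the hippocampal list, 3 were lower and none higher, with a list median of -0.30. These were Spink8 at -1.57 (SE 0.13, edgeR adjusted p = 6.69e-06), Fibcd1 at -1.05 (SE 0.23, edgeR adjusted p = 0.007) and Lct, named after their values were seen. Lct reached the filter's cutoff in 4 of 4 control and 0 of 6 GA-Camk2a libraries and so entered the test only through the controls, whereas Spink8 and Fibcd1 had libraries of both groups over it. Without Lct, 2 of 7 genes on the list were lower with a median of -0.22, beside 5.97% of all genes tested. Prox1, the transcription factor of granule neurons, was at 0.21 (SE 0.17, edgeR adjusted p = 0.494). The summed level of the list, at 637.9 to 801.7 CPM in controls and 605.8 to 828.6 CPM in GA-Camk2a mice, overlapped between the genotypes. Of the 6 general neuronal markers 5 were lower, with a median of -0.40 and sums of 3459 to 3880 CPM in controls and 2375 to 3115 CPM in GA-Camk2a mice. The part of either list in the change of Bcl11b was not tested.

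None of the other hippocampal members passed. For Lamp5, controls held 23.7, 20.4, 27.9 and 30.8 CPM and GA-Camk2a libraries 15.2 to 24.0 CPM with a median of 21.4, a change of -0.39 (SE 0.16, edgeR adjusted p = 0.139). Cux1, Cux2, Rasgrf2, Fezf2, Foxp2 and Tle4 had fitted changes from 0.01 to 0.26, each with an adjusted p of 0.325 or more. Rspo1 was not tested, with 0 to 12 counts per hippocampus library. It was at 0 counts in control 31 and GA-Camk2a 41, where 3 counts, the approximate 95% upper limit for a count of 0, correspond to 1.71 and 2.00 CPM, a limit that covers counting error only. The 6 choroid plexus markers, which come from tissue beside the hippocampus, summed to between 1810 and 32738 CPM in control and between 1848 and 55558 CPM in GA-Camk2a hippocampus, and their part in the hippocampal levels was not tested.

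Rorb in hippocampus fell into separate sets of libraries that did not follow the genotype. Controls held 104, 86.6 and 108 CPM and, in control 11, 1455 CPM. GA-Camk2a libraries held 130, 165, 103 and 133 CPM and, in GA-Camk2a 16 and 30, 5303 and 4414 CPM. With GA-Camk2a 41 of the cortex these were the 4 libraries over 3 times the Rorb median of 154 CPM, and all 4 belonged to batch 1, which held 12 of the 21 libraries. The other tissue of the same mice stood within the range of the remaining 17 libraries, 86.6 to 214 CPM. The fitted genotype change in hippocampus was 1.22 (SE 0.77, edgeR adjusted p = 0.357) over all libraries, 0.64 (adjusted p = 0.64) without control 37 and 0.36 (adjusted p = 0.0703) without the 3 high hippocampus libraries. The 8 thalamic markers, from a tissue that also expresses Rorb, summed to 203 and 193 CPM in the high GA-Camk2a hippocampus libraries 16 and 30, to 229 CPM in hippocampus control 11 and to 228 CPM in cortex GA-Camk2a 41, and to between 168 and 304 CPM in the other 17 libraries. Their part in the Rorb level was not tested.

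The genotype effect was then compared between the tissues as an interaction over all 21 libraries, positive where GA-Camk2a against control was higher in hippocampus than in cortex. None of the 10 members passed (edgeR), beside 0.400% of all 14751 genes. At an unadjusted p under 0.05 there were 4 members, beside 1479 of all genes. DESeq2 also called none of the members, with 5 at an unadjusted p under 0.05, beside 1235 of all genes. The estimate was above 0 for 9 of the 10 members and was largest, among those with an unadjusted p under 0.05, for Foxp2 at 0.87 (SE 0.28, edgeR adjusted p = 0.225) and Rasgrf2 at 0.60 (SE 0.22, edgeR adjusted p = 0.302). For Bcl11b it was 0.38 (SE 0.16, edgeR adjusted p = 0.371) and for Tle4 0.38 (SE 0.14, edgeR adjusted p = 0.318). That Lamp5 and Foxp2 passed in cortex and not in hippocampus is therefore not shown to be a difference between the tissues.

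Across the 4 groups the markers took different orders. In control mice, 6 of the 10 members were lower in hippocampus than in cortex and Fezf2 was higher (edgeR, adjusted p under 0.05), beside 16.3% of all 14435 genes tested, 7.60% lower and 8.69% higher. All 4 markers of layers 2/3 were lower: Lamp5 by -1.98 (SE 0.17, adjusted p = 6.21e-07), Cux2 by -1.40 (SE 0.16, adjusted p = 1.54e-05), Rasgrf2 by -0.50 (SE 0.17, adjusted p = 0.0473) and Cux1 by -0.41 (SE 0.12, adjusted p = 0.023). Foxp2 was lower by -1.76 (SE 0.21, adjusted p = 1.76e-05), whereas Tle4 was at -0.08 and Bcl11b at 0.31 (SE 0.11, adjusted p = 0.0599). Rspo1 had a fitted difference of -2.33 (SE 0.41, adjusted p = 0.000764), but it reached the filter's cutoff of 3.66 CPM in 4 of 5 cortex and 0 of 4 hippocampus libraries. It therefore entered the test only through the tissue in which it is high, and without it 5 of 9 members were lower. The striatal markers were also lower in hippocampus in this comparison. Of the 11 tested, Adora2a, Drd1, Drd2, Gpr6 and Isl1 entered only through cortex. The other 6 were all lower with a median of -2.56, and their part in the differences of Foxp2 and Bcl11b was not tested.

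Fezf2 was higher in hippocampus, with 26.3, 23.9, 26.8 and 24.2 CPM against 14.7 to 20.5 CPM in control cortex, a difference of 0.50 (SE 0.15, edgeR adjusted p = 0.0338). Its groups did not overlap, as for 5 of the 10 members in this comparison and 13.7% of all genes. The small differences were fragile: that of Cux1 no longer passed without cortex control 20 or 38 or hippocampus control 11, that of Fezf2 without cortex control 31 or 37 or hippocampus control 11, 20 or 31, and that of Rasgrf2 without any of 7 of the 9 libraries, all but cortex control 38 and hippocampus control 20, with adjusted p up to 0.126. They also depended on the fit. Cux1 did not pass without the filter on low counts or with thinned counts (adjusted p up to 0.209), Fezf2 without the filter or with DESeq2 (up to 0.0968), and Rasgrf2 without the filter, without the batch term, with thinned counts or with DESeq2 (up to 0.136). DESeq2 thus called 5 members against 7 with edgeR, beside 1884 and 2351 of all genes. Bcl11b passed without cortex control 31 (adjusted p = 0.0364) or hippocampus control 37 (0.0456). For Rorb a single library set the sign, with a difference of 1.01 (SE 0.55, edgeR adjusted p = 0.228) over all libraries, -0.67 (adjusted p = 0.00174) without hippocampus control 11 and 1.34 (adjusted p = 0.0452) without hippocampus control 37. Without the filter on low counts it was 1.01 and passed (adjusted p = 1.12e-14). With the mouse as a block the Rorb difference was 0.13 (edgeR adjusted p = 0.893).

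In GA-Camk2a mice, 4 members were higher in hippocampus and 3 lower of the 9 tested, beside 33.2% of all 13098 genes, 17.3% higher and 15.9% lower. Lamp5 was lower by -1.46 (SE 0.16, edgeR adjusted p = 6.18e-06), Cux2 by -0.92 (SE 0.17, edgeR adjusted p = 0.000623) and Foxp2 by -0.85 (SE 0.21, edgeR adjusted p = 0.00469). Bcl11b was higher by 0.71 (SE 0.11, edgeR adjusted p = 0.000183), with 68.1 to 93.6 CPM in hippocampus above 39.6 to 62.3 CPM in cortex, and Fezf2 by 0.57 (SE 0.17, edgeR adjusted p = 0.0164). Of the 5 striatal markers that did not enter this test only through cortex, there were 3 lower and 1 higher in hippocampus with a median of -0.77, and their part was again not tested. Groups did not overlap for 3 of the members, beside 13.0% of all genes.

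The other tissue differences of GA-Camk2a mice rested on single libraries or on the model. Tle4 was higher by 0.32 (SE 0.11, edgeR adjusted p = 0.036), and with the mouse as a block the value was 0.31 and did not pass (adjusted p = 0.0736). It also did not pass without any of cortex GA-Camk2a 23, 30, 34 or 41 or hippocampus GA-Camk2a 23, 30 or 34 (adjusted p up to 0.0926), nor without the filter on low counts, with thinned counts, with DESeq2 or without the libraries with high Rorb (adjusted p up to 0.207). Rorb was higher by 2.10 (SE 0.75, edgeR adjusted p = 0.0397), did not pass without any of cortex GA-Camk2a 23, 30, 34 or 41 or hippocampus GA-Camk2a 16 or 30 or with DESeq2, and was at -0.22 (adjusted p = 0.15) without its 3 high libraries in this comparison. Fezf2 lost its call without hippocampus GA-Camk2a 34 (0.47, adjusted p = 0.0543). DESeq2 called 5 members against 7 with edgeR, beside 3718 and 4350 of all genes.

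The order of the group means can be read from the plot of each marker by library. Bcl11b was highest in control hippocampus at 116 CPM, followed by control cortex at 88.9, GA-Camk2a hippocampus at 82.3 and GA-Camk2a cortex at 47.0, and only the middle neighbours in that order overlapped. Lamp5 went from 101 CPM in control cortex through 54.8 in GA-Camk2a cortex and 25.7 in control hippocampus to 20.1 in GA-Camk2a hippocampus, and the step from cortex to hippocampus was the only one without overlap. For the other 8 members, all neighbours in the order of the means overlapped.

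A list of 45 further layer markers was drawn from general knowledge of the cortex, but with earlier results of these data known. In the cortex genotype comparison 37 could be tested, and 8 were lower and none higher, beside 6.17% lower and 6.35% higher over all genes tested. These counts are a description and give no independent support to the members. The upper layer list gave 3 lower of 15 tested with a median log2 fold change of -0.13, and the deep layer list 5 lower of 22 tested with a median of -0.28. In layer 6 these were Tbr1, a transcription factor of corticothalamic neurons that fell by -0.82 (SE 0.12, edgeR adjusted p = 0.000101) from 48.2 ± 7.75 (SD, n = 5) to 27.7 ± 2.34 CPM (SD, n = 6), and Nr4a2, an orphan nuclear receptor of the deepest neurons, at -1.16 (SE 0.23, edgeR adjusted p = 0.00194). In layer 5 they were Pcp4, a calmodulin-binding peptide, at -0.91 (SE 0.10, edgeR adjusted p = 2.4e-06), Crym, a thyroid hormone binding protein, at -0.44 (SE 0.14, edgeR adjusted p = 0.0351), and Etv1, which lay below the naming limit of 4 genes and is named after its value was seen, at -0.35 (SE 0.11, edgeR adjusted p = 0.0459). The striatal markers described below also fell in these cortex libraries. Without those that depended on the controls to enter the test, 7 of 7 were lower with a median of -1.38. Their part in the falls of Pcp4 and the other further markers was not tested.

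The upper layer genes that fell in cortex were the semaphorin receptor Plxnd1 at -0.57 (SE 0.18, edgeR adjusted p = 0.0443) in layers 2/3, and the netrin receptor Unc5d at -0.56 (SE 0.17, edgeR adjusted p = 0.0358) and the nuclear receptor Rora at -0.41 (SE 0.12, edgeR adjusted p = 0.026) in layer 4. Both lists held genes on either side of 0, 5 above and 10 below in the upper list and 6 above and 16 below in the deep list.

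In hippocampus, 40 of these 45 genes could be tested, with 2 higher and 5 lower in GA-Camk2a mice, beside 4.97% higher and 5.97% lower over all genes tested. The genes that fell were Mdga1, a cell adhesion protein, at -1.17 (SE 0.24, edgeR adjusted p = 0.00574), Wfs1, an endoplasmic reticulum protein of CA1 neurons, at -0.83 (SE 0.13, edgeR adjusted p = 0.00086), the adhesion molecule Nectin3 at -0.50 (SE 0.15, edgeR adjusted p = 0.0402), Nr4a2 at -0.94 (SE 0.21, edgeR adjusted p = 0.00871) and Crym at -0.88 (SE 0.12, edgeR adjusted p = 0.000269). The retinol carrier Rbp4 rose by 0.55 (SE 0.14, edgeR adjusted p = 0.0214). The other gene that passed as higher, Endou, averaged 6.33 ± 2.18 CPM (SD, n = 6) in GA-Camk2a hippocampus against 1.06 ± 0.88 (SD, n = 4) in that of controls. It reached the filter's cutoff of 3.94 CPM in 0 of 4 control and 5 of 6 GA-Camk2a libraries, so it entered the test only through the group in which it is high. Nr4a2 and Crym fell in both tissues. In the interaction, 1 of 44 further markers passed, Wfs1 at -0.96 (SE 0.20, edgeR adjusted p = 0.0273).

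**Figure D4:**
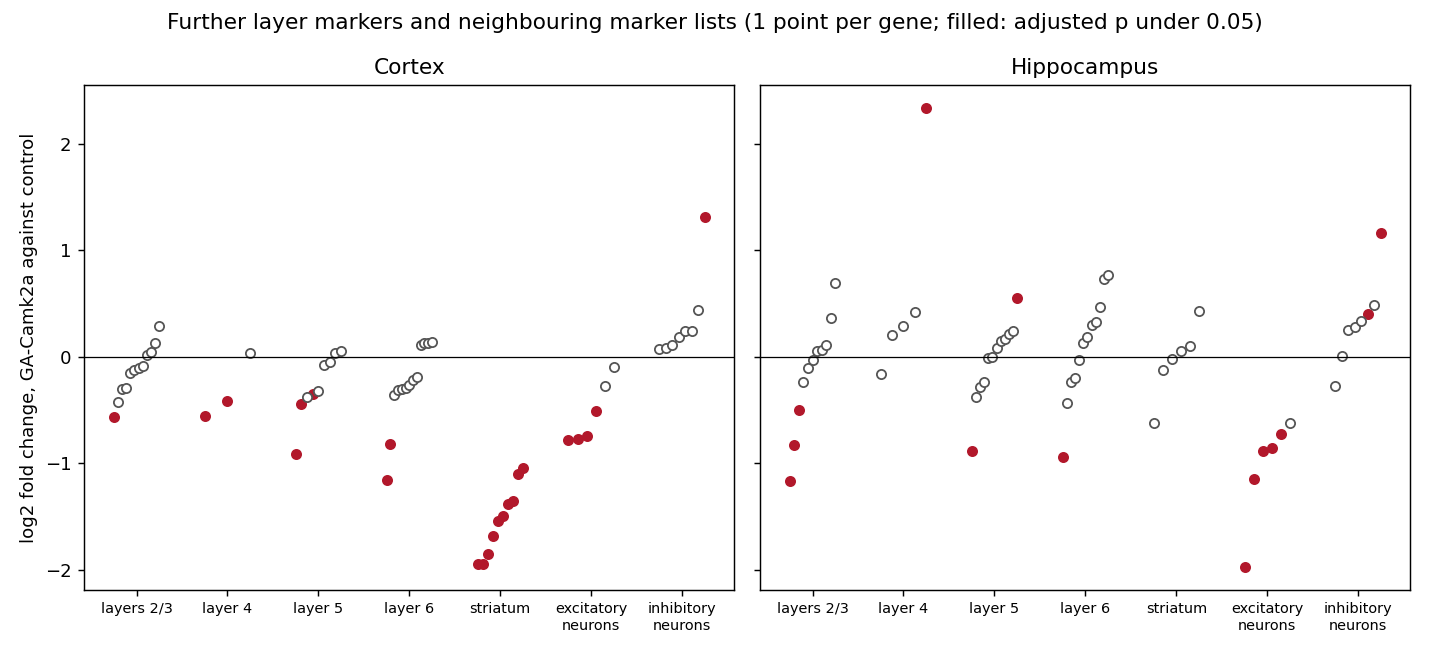
Log2 fold change in GA-Camk2a against control mice (vertical axis, edgeR estimate) of the further layer markers and of the striatal, excitatory and inhibitory neuron lists, 1 point per gene tested, in cortex and in hippocampus; filled points passed an adjusted p of 0.05. All 10 striatal genes tested fell in cortex, and none passed in hippocampus.

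Markers of other cells moved with the genotype as well. In cortex the 12 striatal markers summed to between 1017 and 1603 CPM in controls and between 284 and 659 CPM in GA-Camk2a mice, and 10 of 10 tested were lower with a median log2 fold change of -1.52. Adora2a, Drd2 and Gpr6 reached the filter's cutoff in too few GA-Camk2a libraries to be tested on these alone, and without them 7 of 7 were lower with a median of -1.38. Adora2a, the adenosine receptor of striatal neurons, fell by -1.95 (SE 0.24, edgeR adjusted p = 7.85e-06) and Drd1, a dopamine receptor, by -1.38 (SE 0.20, edgeR adjusted p = 5.35e-05). Bcl11b and Foxp2 are expressed by those neurons too, and the part of the striatal markers in the change of either gene in cortex was not tested. In hippocampus the same list summed to between 209 and 262 CPM in controls and between 207 and 314 CPM in GA-Camk2a mice, and 6 of its 12 genes could be tested, of which 0 passed (edgeR).

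Markers of excitatory neurons, the cells that express the transgene, were lower in both tissues. In cortex they summed to between 1853 and 2347 CPM in controls and between 1195 and 1646 CPM in GA-Camk2a mice, and 4 of 6 passed with a list median of -0.63. In hippocampus 5 of 6 passed, with a median of -0.87 and sums of 2051 to 2593 CPM in controls and 1084 to 1466 CPM in GA-Camk2a mice. Of the 6 general neuronal markers, 3 were lower in cortex with a median of -0.33. The 3 members that fell in cortex had changes from -0.93 to -0.62, and the part of the excitatory and general neuronal markers' change in them was not tested.

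No inhibitory neuron marker passed as lower. Of 8 tested in each tissue, 1 was higher in cortex, the interneuron peptide Vip at 1.31 (SE 0.18, edgeR adjusted p = 3.67e-05), and 2 were higher in hippocampus, and the marker Ndnf of the interneuron class that also makes Lamp5 was at 0.18 (SE 0.24, edgeR adjusted p = 0.681) in cortex. Microglial markers were higher for 7 of 8 genes in either tissue and astrocyte markers for 5 of 8 in cortex and 6 of 8 in hippocampus. In cortex the microglial list summed to between 371 and 413 CPM in controls and between 936 and 1429 CPM in GA-Camk2a mice. Their part in the levels of the layer markers, which are shares of a library's total, was not tested.

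The genes most like each member over the 21 libraries were sought by Pearson's r of log2 CPM among 14751 genes, as a description that carries both the tissue and the genotype differences of these libraries. For Lamp5 they were Osbpl1a (r = 0.97), Arhgap10 (0.945) and 1110008P14Rik (0.937), and for Cux2 Mef2c (0.894), Ccl27b (0.892) and Abcg1 (0.874). Bcl11b came closest to Grm5 (0.919), Ppp3ca (0.915) and Arf3 (0.908). Foxp2 came closest to Tac1 (0.907) and Adora2a (0.891), both on the striatal list, and to Rasgrp2 (0.886). The closest to Tle4 were Rasa2 (0.855), Dop1a (0.829) and Cacul1 (0.827), and to Fezf2 Man1a (0.822), Smim15 (0.816) and Spred2 (0.791). For Rspo1 they were Rbfa (0.843), Rtl8a (0.826) and Dusp15 (0.824), for Cux1 Mmgt2 (0.766), Plekho1 (0.757) and Gm2415 (0.713), and for Rasgrf2 Tbc1d8 (0.744), the unnamed gene ENSMUSG00000121179 (0.741) and Ddit4l (0.721). For Rorb, whose spread is that of 4 libraries, they were Commd10 (0.953), Gm29585 (0.917) and Gm48581 (0.912).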

How the data were processed

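Total RNA from the 21 samples was sequenced with prime-seq. The authors made counts per gene with zUMIs on mouse build mm39, and the submitters' processing notes also name FastQC 0.11.8, cutadapt 1.12, STAR and DESeq2 1.44. The deposited values are whole-number counts, not normalized. Whether molecular identifiers or reads were counted, and whether strand or introns were used, is not given in the sources used here, so overlapping genes cannot be separated. Groups, mouse numbers and batch came from the labels. The study's text gives the numbers of control mice for cortex and hippocampus the other way round, and the labels were followed. Symbols were matched by Ensembl number for 43308 of 64361 genes, which held 96.1% of counts. No coordinates on the build of the counts are given.

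Each comparison was fitted on all genes with edgeR 4.0.16 (R 4.3.3) by the quasi-likelihood F-test, with TMM normalization, a batch term and the filterByExpr filter (minimum count 10), whose CPM cutoff a gene can reach through 1 group alone. P-values were adjusted by the Benjamini-Hochberg method over all genes tested, with a threshold of 0.05, and every adjusted p comes from edgeR unless DESeq2 1.42.0 is named. DESeq2, which the study used with no stated covariate, was one of the alternatives, here with the batch term. Mean log2 CPM used a prior count of 2. The members, the gene lists and the naming rule (all members, of the further layer markers the 4 largest changes that passed per layer group, and the 3 genes most like each member) were chosen with earlier results of these data known. The fits were tested on simulated counts.

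Samples of 1 mouse carry the same number in their titles, and the sex-linked genes agreed between the tissues in 10 of 10 mice. Xist was high in 1 control and 2 GA-Camk2a mice, so both sexes entered the groups, and no fit held a term for sex. Over 5233 genes, deviations from the group means correlated between the tissues of a mouse with a median r of 0.104 (range -0.131 to 0.331), and between different mice with a median of -0.0024 and a highest of 0.346. Of 10 mice, 3 had their highest correlation with their own other tissue, so the pairing rests on the titles and is not shown by these correlations. The mouse was used as a block in an alternative fit. The paper states that its GA-Camk2a mice came from 2 litters, without saying which mouse came from which. Nothing states that a control and a GA-Camk2a mouse were littermates. No pair of libraries within a group was identical (46 pairs), and each library was kept. Depth limits low genes such as Rspo1 and Foxp2 most. The results of 2 genes of the marker lists are not reported here.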

Additional observations from a re-analysis of the deposited data

Results flagged for a closer look

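Within groups, 5 of the 40 combinations of member and group held a library that stood apart from the others by its gap over the group's range (Dixon's criterion), whereas chance gives about 1 in 20. For Rorb these were cortex GA-Camk2a 41, at 612 CPM, and hippocampus control 11, at 1455 CPM, each the highest of its group. The high GA-Camk2a hippocampus libraries 16 and 30 did not stand apart by this measure because there were 2 of them. Bcl11b was lowest in hippocampus control 37, at 103 CPM, which was still above every GA-Camk2a hippocampus library. Foxp2 was highest in hippocampus control 31, at 9.12 CPM, and Tle4 was lowest in cortex GA-Camk2a 34, at 26.6 CPM. The causes were not tested.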

How the results depend on the processing

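Leaving out the 4 libraries with high Rorb was an alternative chosen after seeing the data. The falls of Lamp5 and Bcl11b in cortex passed under every alternative run, and that of Bcl11b in hippocampus under all but batch 1 alone. Where no cause is given for a changed value, the cause was not tested. In the genotype comparison of cortex, the genes passing numbered 999 with thinned counts, 876 in batch 1 and 230 in batch 2, where fewer libraries entered. In hippocampus they numbered 946 with thinned counts, 115 in batch 1, 681 in batch 2 and 1005 without the libraries with high Rorb, and 2 members passed without the filter (Bcl11b and Rorb) and 0 in batch 1. The interaction gave 36 genes without the batch term, 159 and 1 member (Rorb) without the filter, 127 with DESeq2, 26 thinned and 23 without the libraries with high Rorb. The tissue comparisons gave, with thinning, 1419 genes and 4 members in controls and 2859 genes in GA-Camk2a mice, where 2791 genes passed without the libraries with high Rorb. With the mouse as a replicate block, 0, 7 and 6 members passed in the interaction, in controls and in GA-Camk2a mice, beside 70 of 14751, 2002 of 14435 and 4312 of 13098 genes, and no member's call changed other than that of Tle4.

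Leaving out each library in turn gave 2 to 4 members and 1038 to 1526 genes in cortex (1038 without control 31), 1 to 1 member and 1038 to 1831 genes in hippocampus (1038 without control 31, 1082 without control 20), 22 to 66 genes in the interaction (under 40 without cortex GA-Camk2a 23 or 35, cortex control 11, 31 or 37, hippocampus GA-Camk2a 23 or hippocampus control 11, 31 or 37), and 4 to 8 members in the control tissue comparison (4 without cortex control 20). Among members tested, the ranges that crossed 0 were -0.085 to 0.56 for Rorb and -0.11 to 0.15 for Fezf2 in cortex, -0.087 to 0.078 for Fezf2 in hippocampus, -0.14 to 0.13 for Fezf2 in the interaction, -0.67 to 1.36 for Rorb in the control tissue comparison and -0.013 to 0.17 for Rasgrf2 in that of GA-Camk2a mice. Among layer levels, they were -0.0012 to 0.23 for upper minus deep in cortex and -0.058 to 0.037 for deep in hippocampus.

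Other signs that turned belonged to changes that had not passed, except that of Rorb in the GA-Camk2a tissue comparison. In batch 2 of cortex Cux1 was at 0.064, Rorb at -0.019 and Fezf2 at -0.21, and without the filter Fezf2 was at -0.017. In hippocampus Cux2 was at -0.024 in batch 1, and Fezf2 at -0.065 without the filter, -0.23 thinned and -0.20 in batch 2. In the interaction Fezf2 was at 0.0074 with RLE size factors and 0.0069 with DESeq2. Without the libraries with high Rorb, Rorb was at -0.085 in cortex, -0.67 in the control and -0.22 in the GA-Camk2a tissue comparison. For layer levels as the log2 of summed CPM, the genotype differences were -0.61 (deep) and 0.51 (upper minus deep) in cortex and 0.97 (upper), -0.24 (deep) and 1.21 (upper minus deep) in hippocampus, where Rorb dominates the sum. Without Foxp2, Bcl11b and Rorb they were -0.14 (deep) and -0.34 (upper minus deep) in cortex and 0.086 (upper), 0.085 (deep) and 0.00049 (upper minus deep) in hippocampus, where the deep difference was also above 0 without the libraries with high Rorb.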

Other observations

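Other transcripts were also high in the 4 libraries with high Rorb. Among 13219 genes with at least 10 counts in each of these 4 libraries, 14 were in each of the 4 over 5 times as high as in any of the other 17. Because genes were eligible by their counts in the libraries where they were then sought as high, this number is a description only. In the reverse direction, 0 of 8925 genes with at least 10 counts in each of the 17 libraries were in each of them over 5 times as high as in any of the 4. The genes below were named after their values were seen. Gm15541 held 53.5 to 102 CPM in the 4 libraries and at most 2.67 CPM elsewhere, and Olfr1537 held 36.4 to 127 CPM and at most 4.79 CPM elsewhere. Vmn1r196, Mmp27 and Ifna16, a vomeronasal receptor, a metalloproteinase and an interferon gene, were at 3.58 to 13.0 CPM in the 4 libraries and at 0 counts in all 17 others. Rorb itself held 612 to 5303 CPM against 86.6 to 214 CPM and did not meet this criterion. All 4 libraries were of batch 1, they came from both tissues and both genotypes, and the cause was not tested.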
